A study of Mus musculus with 30 samples.

Results

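Liver mRNA of mice given cisplatin was compared between animals whose implanted pump delivered acyl-CoA-binding protein and animals without that protein. The comparison used 10 of the 30 libraries of the series, 5 with the treatment label CDDP and 5 with the label Rec-ACBP+CDDP, written CDDP+ACBP below, and these were taken by their labels alone. All came from livers of female, wild type C57BL/6J mice. At 8 weeks of age they received an osmotic pump filled with PBS or with 2.5 mg/mL ACBP. Cisplatin (CDDP) followed 72 hours later as a means of inducing anorexia. The cisplatin dose, the time from cisplatin to sampling, the time of day and food intake are not stated in the labels. Levels are also given for 5 libraries with a PBS pump and 5 with an ACBP pump, both without cisplatin (PBS and ACBP below). As food intake is not known, a difference made by the pump and one made by how much the mice ate cannot be told apart. The question was which functions of the liver differed most, and which least, between the 2 cisplatin groups.

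Acyl-CoA-binding protein, also named diazepam-binding inhibitor, is a small protein that carries long-chain acyl-CoA esters inside cells. Outside cells it modulates GABA-A receptors, and it is known as a factor that stimulates appetite and fat storage. Cisplatin crosslinks DNA, which stabilizes the transcription factor p53 and induces its target genes, and it is known to cause loss of appetite. The liver responds to such stress with acute phase proteins made under interleukin-6 and STAT3, and to fasting with glucocorticoid and glucagon programmes that switch on glucose synthesis.

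Reads counted on genes ranged from 15521545 to 18479134 in the 10 libraries, and 14779 genes passed the filter on low counts. Levels are given as CPM (reads on a gene relative to all reads on genes) scaled by TMM factors, which correct for composition. Changes are log2 fold changes of CDDP+ACBP over CDDP with an approximate SE, so a negative value is lower with the ACBP pump. Since nothing in the labels ties a library to its own mouse, p-values measure the spread between libraries, which may be technical. Defining hepatocyte transcripts were present in all libraries. Over 10 such markers the median log2 fold change was -0.69, with 7 fold changes negative and 3 positive. Their summed level was 96057 to 178820 CPM in CDDP and 48118 to 109730 CPM in CDDP+ACBP. Alb, which encodes albumin, stood at 54395, 74916, 59612, 59742 and 100044 CPM in CDDP and at 61000.2, 56663, 28677, 66038 and 71021 CPM in CDDP+ACBP (log2 fold change -0.27 ± 0.39, edgeR adjusted p = 0.665).

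The labels were checked against Cdkn1a (ENSMUSG00000023067, chromosome 17, 29090976 to 29100727), which encodes the p53-induced cell cycle inhibitor p21. Its level was 154, 415, 212, 318 and 455 CPM in CDDP replicates 1 to 5, and 63.2, 36.9, 52.8, 5.12 and 16.4 CPM in CDDP+ACBP. PBS libraries ranged from 0.687 to 6.45 CPM. The groups did not overlap (log2 fold change -3.12 ± 0.57, edgeR adjusted p = 0.00687), and the library labelled CDDP+ACBP replicate 4 lay within the PBS range. Of 31 p53 targets tested, 22 to 24 stood above the highest PBS library in each CDDP library. In CDDP+ACBP these numbered 20, 19, 21, 9 and 17, with the 9 in the library labelled replicate 4. That library, and replicate 5 with the next lowest Cdkn1a level, are therefore left out in turn beside the main counts. Whether these animals received or responded to cisplatin as the others did was not tested. CDDP replicate 5 also stood apart, with the highest level of many stress transcripts and a TMM factor of 0.690 against 0.994 to 1.13 in the other CDDP libraries.

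Of the 14779 genes, 2217 (15%) were changed at an edgeR adjusted p under 0.05, 974 higher (6.59%) and 1243 lower (8.41%) in CDDP+ACBP. The median log2 fold change over all genes tested was -0.02 and the median size of change was 0.47. In 2216 genes (15%) the 2 groups did not overlap. Among the changed genes, the CDDP mean lay within the range of the 5 PBS libraries for 1.49%, and the CDDP+ACBP mean for 73.7%. Over all genes tested these shares were 34.8% and 77.8%. The changed genes were chosen by the difference between these 2 groups, so the gap between their 2 shares is no separate support. In single CDDP libraries 2.75% to 10.5% of the changed genes lay within the PBS range. In single CDDP+ACBP libraries the share of changed genes within the PBS range was 44.6%, 49.8%, 46.0%, 70.4% and 49.1%, highest in the library labelled replicate 4. The count of changed genes was 879 without that library and 138 without replicates 4 and 5. It was also moved by over 1.5 times without CDDP replicate 2 (1256), CDDP replicate 4 (1293) or CDDP+ACBP replicate 3 (1447). All 2217 genes kept their direction without CDDP+ACBP replicate 4 and without replicates 4 and 5. They were chosen by the full fit, whose libraries these fits reuse, so their kept direction is no separate support. Of the 74 named genes that were called, 19 lost the call without the library labelled CDDP+ACBP replicate 4, and 1 to 9 without 1 of the other 9 libraries. Calls that hung on single libraries were those of Cd3d, lost in 8 of these 10 fits, Atp5b, Tat and H2-Ab1 in 7, Clec4f in 6, Hp and Trbc1 in 5, and Sdhd and Ctsl in 4, with edgeR adjusted p of at most 0.114.

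**Figure D1:**
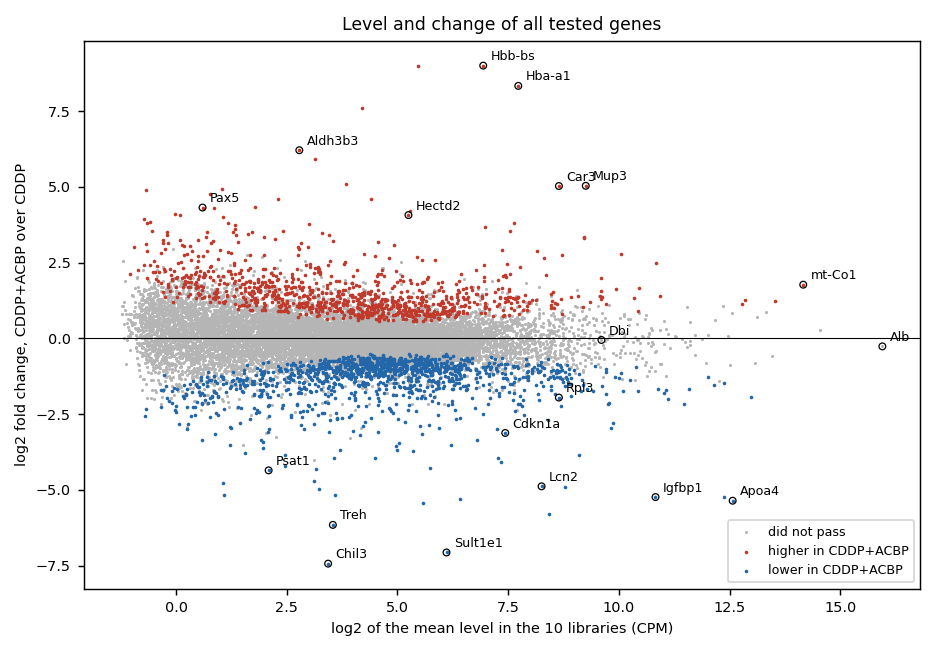
Every tested gene by its mean level in the 10 libraries (x axis, log2 CPM) and its log2 fold change of CDDP+ACBP over CDDP (y axis). Red points are the 974 genes higher and blue points the 1243 genes lower at an edgeR adjusted p under 0.05, and circles mark genes named in the text, from Hbb-bs at 9.0 to Chil3 at -7.44.

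Functions were read from 66 gene lists, 52 of pathways and 14 of cell type markers, of which 62 had at least 6 members tested. 3 sets stood highest by median: red cell transcripts at 8.33 over 5 members, major urinary proteins at 4.1 over 9, and B and plasma cell markers at 3.31 over 12. Members near 0 in CDDP could pass the filter on low counts only through CDDP+ACBP, so medians of such sets lean toward rises. Lowest were acute phase proteins at -1.68, glucocorticoid receptor targets at -1.61 and immediate early genes at -1.55. This order rested on CDDP replicate 5, without which these medians were -0.96, -0.82 and -0.56. Monocyte and neutrophil markers (-1.24), amino acid stress genes (-1.09) and cytosolic ribosomal proteins (-1.01) then stood lower. At the other end, mitochondrial ribosomal proteins had a median size of change of 0.21, the nuclear-encoded respiratory chain 0.24, and DNA repair and nuclear receptors 0.28 each.

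**Figure D2:**
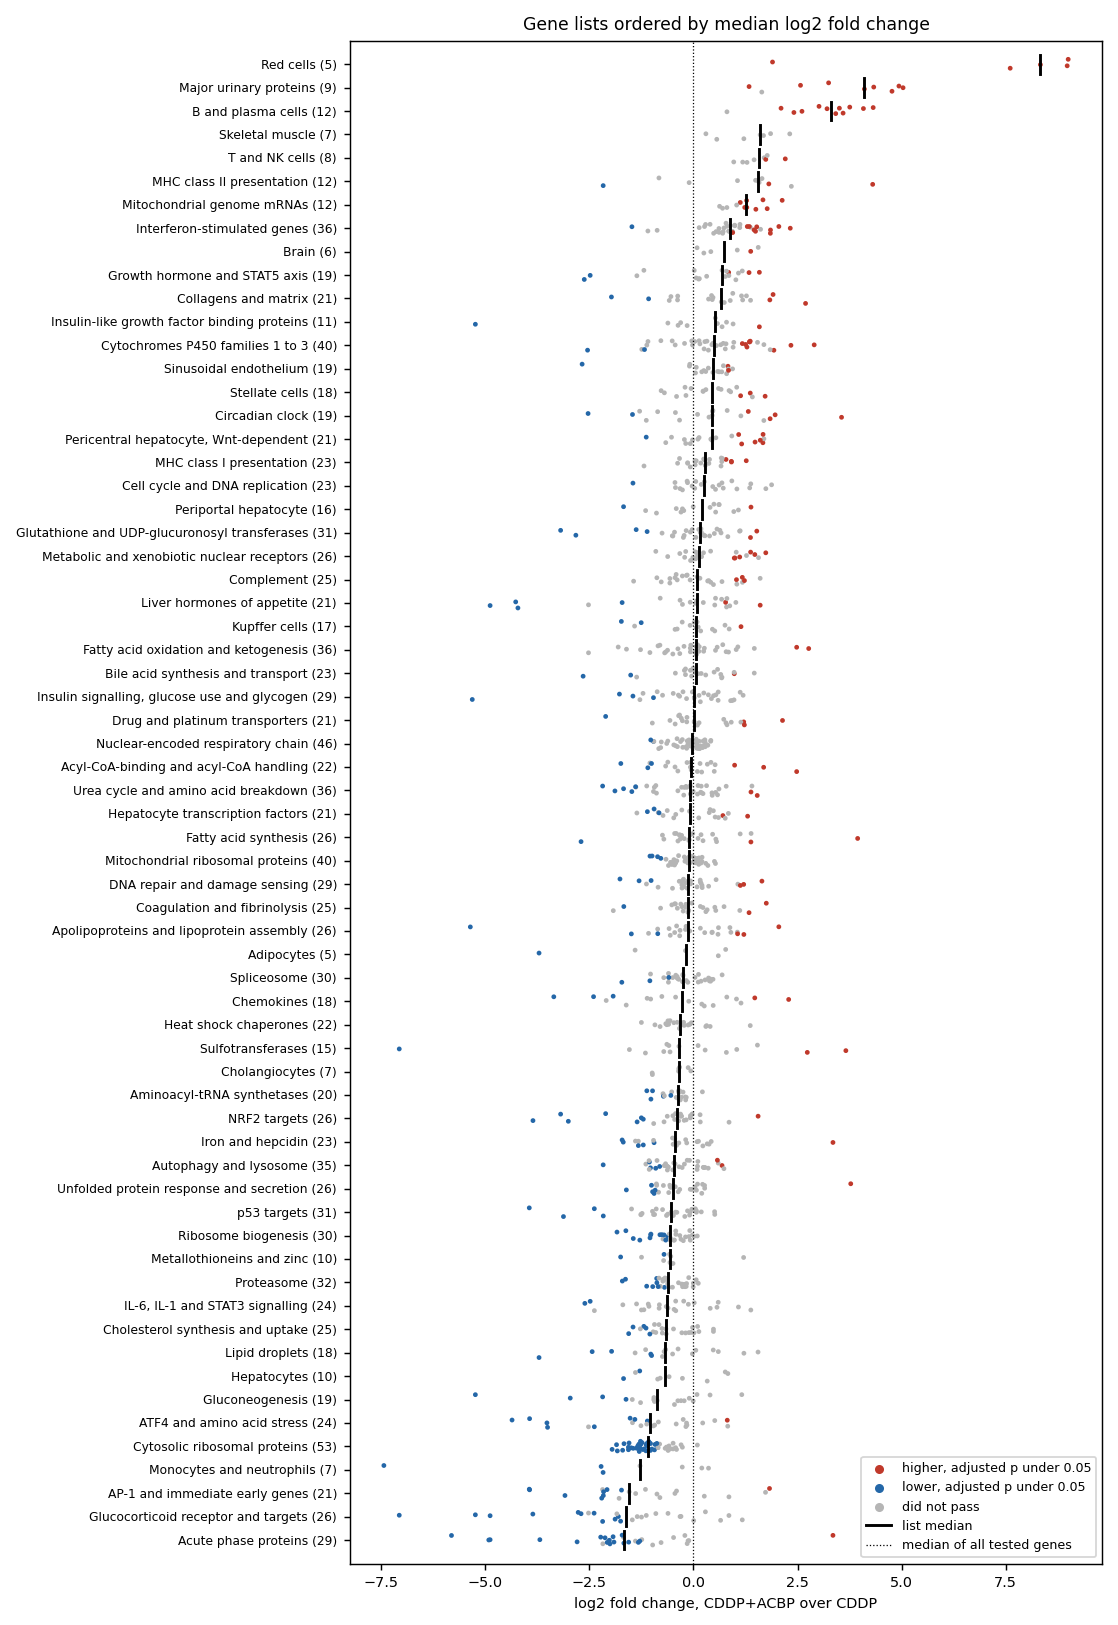
Members of each gene list with at least 5 tested members (number in brackets) by log2 fold change of CDDP+ACBP over CDDP (x axis), with lists ordered by their median (black bar). Red and blue points passed the edgeR test and grey points did not, and the dotted line is the median of all genes at -0.02; red cell and major urinary protein transcripts stand at the top and acute phase proteins at the bottom.

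Promoters of 3 genes show the DNA elements through which members of the interferon, amino acid stress and acute phase lists are known to be switched on. They are RefSeq windows of 300 bases, from 250 before to 50 after the start on build GRCm38.p6, with capitals marking the element. Ifit3 is an interferon-stimulated gene (chr19:34583279-34583578, plus strand) and its capitals mark the interferon-stimulated response element, TTTC and TTTC with any 2 bases between them. Asns, asparagine synthetase (chr6:7693160-7693459, minus strand), carries the C/EBP-ATF response element TGATGNAA. Fga, the fibrinogen alpha chain (chr3:83025903-83026202, plus strand), carries the STAT3 site TTCNNGGAA.
Ifit3: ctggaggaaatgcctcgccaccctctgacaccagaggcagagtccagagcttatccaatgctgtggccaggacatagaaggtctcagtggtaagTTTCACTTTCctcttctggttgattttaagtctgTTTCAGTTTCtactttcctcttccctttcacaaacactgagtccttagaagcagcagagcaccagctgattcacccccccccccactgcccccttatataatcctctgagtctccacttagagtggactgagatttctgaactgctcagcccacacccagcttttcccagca
Asns: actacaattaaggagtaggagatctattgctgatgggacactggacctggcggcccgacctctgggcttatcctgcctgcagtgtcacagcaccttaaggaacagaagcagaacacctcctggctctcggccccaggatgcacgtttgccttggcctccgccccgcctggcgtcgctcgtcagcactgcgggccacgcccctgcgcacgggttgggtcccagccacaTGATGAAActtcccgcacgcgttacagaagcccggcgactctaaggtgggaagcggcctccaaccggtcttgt
Fga: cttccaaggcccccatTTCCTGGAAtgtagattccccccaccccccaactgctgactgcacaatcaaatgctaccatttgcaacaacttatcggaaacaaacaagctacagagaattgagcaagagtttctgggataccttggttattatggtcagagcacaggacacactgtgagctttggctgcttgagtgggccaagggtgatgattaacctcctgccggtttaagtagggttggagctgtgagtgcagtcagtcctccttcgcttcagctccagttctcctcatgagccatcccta
Both strands were searched in all windows. The interferon element was found in 16 of 24 interferon genes with a promoter in the table (66.7%), against 3.99% of 27025 genes. The ATF element was found in 7 of 21 amino acid stress genes (33.3%, against 4.51% of all). For the STAT3 site this was 8 of 23 acute phase genes (34.8%, against 5.6%). The E-box CACGTG of clock genes was found in 5 of 16 clock genes (31.2%, against 8.09%). These matches describe letters in a window and not binding.

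Transcripts of red cells had the highest median of the lists. Hba-a1, an alpha globin gene (ENSMUSG00000069919, chromosome 11, 32283511 to 32284465), stood at 1.59, 1.84, 1.04, 1.11 and 1.13 CPM in CDDP and at 570.0, 550.5, 76.9, 594 and 321 CPM in CDDP+ACBP. The groups were far apart (log2 fold change 8.33 ± 0.59, edgeR adjusted p = 3.69e-05), and PBS libraries held 157 to 291 CPM. Hbb-bs, a beta globin gene, had 0.796, 0.724, 0.164, 0.604 and 0.0806 CPM in CDDP and 432, 398, 46.4, 188 and 157 CPM in CDDP+ACBP (log2 fold change 9.0 ± 0.76, edgeR adjusted p = 5.47e-05). The CDDP level of Hbb-bs rested on 43 reads in the 5 libraries together. Hba-a2 rose by 8.97, Hbb-bt by 7.61 and Alas2, the heme synthesis enzyme of erythroid cells, by 1.9 on the log2 scale. All 5 tested members of the red cell list were thus higher, against 6.59% of all genes. All 5 stayed so without the library labelled CDDP+ACBP replicate 4 and without replicates 4 and 5. The other measured red cell genes did not pass the filter on low counts. Genes near 0 in CDDP could pass it only through CDDP+ACBP, so this count leans toward rises. The summed level of the 10 measured red cell genes was 6.96 to 9.38 CPM in CDDP, 166 to 1222 in CDDP+ACBP and 257 to 471 in PBS. CDDP+ACBP replicate 3 was the lowest of its group for every globin gene, and the other 4 stood above the PBS maximum for both Hbb-bs and Hba-a1. Reads of near-identical globin genes can be split between copies, so the values of single copies are uncertain. In bulk tissue, fewer cells of a type, or less retained blood, and less RNA per cell cannot be told apart.

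Markers of B and plasma cells had the highest median of the other cell type lists. Of the 17 markers 12 passed the filter on low counts, and 11 of these rose (91.7%, against 6.59% of all genes). Markers near 0 in CDDP could pass the filter only through CDDP+ACBP, so the share and median lean toward rises. Pax5, the transcription factor of B cell identity, stood at 0.17, 0, 0.439, 0 and 0.0806 CPM in CDDP and 1.78, 0.637, 4.24, 6.37 and 1.43 CPM in CDDP+ACBP. The groups did not overlap, although the level was low in both (log2 fold change 4.31 ± 0.88, edgeR adjusted p = 0.00989). Cd79a, a signalling chain of the B cell receptor, had 0.227, 0.223, 0.713, 0.101 and 0 CPM in CDDP and 1.6, 3.34, 3.91, 4.21 and 1.81 CPM in CDDP+ACBP (log2 fold change 3.5 ± 0.64, edgeR adjusted p = 0.00686). Ighm, the immunoglobulin M heavy chain, had 2.33, 0.835, 3.18, 1.61 and 0.806 CPM in CDDP and 8.37, 17.8, 23.1, 13.5 and 7.51 CPM in CDDP+ACBP (log2 fold change 3.01 ± 0.45, edgeR adjusted p = 0.00365). All 3 were separated between groups, with CDDP+ACBP libraries in or above the PBS range of 6.39 to 11.4 CPM for Ighm. The summed level of the 17 markers was 3.01 to 16.5 CPM in CDDP and 31 to 87 CPM in CDDP+ACBP, against 41.7 to 57.9 CPM in PBS, and none of the 17 was at 0 in all CDDP libraries. Without the library labelled CDDP+ACBP replicate 4 the list had 9 members called, and 1 without replicates 4 and 5, with medians of 3.0 and 3.19.

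T and NK cell markers had a median of 1.58. Of 20 markers 8 passed the filter on low counts, and 2 of these were higher (25%, against 6.59% of all genes). Markers near 0 in CDDP could pass the filter only through CDDP+ACBP. Cd3d, part of the T cell receptor complex, stood at 0.17, 0.111, 0.767, 0.201 and 0 CPM in CDDP and 0.95, 0.955, 2.06, 1.25 and 0.777 CPM in CDDP+ACBP (log2 fold change 2.2 ± 0.67, edgeR adjusted p = 0.0426). Trbc1, a constant region of the T cell receptor, had 1.31, 0.278, 0.932, 0.453 and 0.242 CPM in CDDP and 1.66, 1.49, 2.82, 3.07 and 1.68 CPM in CDDP+ACBP (log2 fold change 1.74 ± 0.49, edgeR adjusted p = 0.0343). These were low levels, and neither gene passed without the library labelled CDDP+ACBP replicate 4 (edgeR adjusted p = 0.0947 and 0.096). Among MHC class II presentation genes, which load peptides for T helper cells, 2 of 12 rose and 1 fell (25%, against 15% of all genes). H2-Ob, a modulator of peptide loading in B cells, had 0.284, 0.0557, 0.329, 0.151 and 0 CPM in CDDP and 2.02, 2.97, 5.38, 5.18 and 1.68 CPM in CDDP+ACBP (log2 fold change 4.3 ± 0.62, edgeR adjusted p = 0.00306). H2-Ab1, the beta chain of a class II molecule, had 8.81, 1.84, 6.85, 6.95 and 0.564 CPM in CDDP and 13.5, 23.2, 16.8, 17.5 and 15.2 CPM in CDDP+ACBP (log2 fold change 1.81 ± 0.52, edgeR adjusted p = 0.0357). The groups did not overlap for either gene, and CDDP replicates 2 and 5 were lowest for H2-Ab1, whose call was lost without the library labelled CDDP+ACBP replicate 4 (edgeR adjusted p = 0.0795). The member that fell was Ctsl, a lysosomal protease, whose level in CDDP replicate 5 was 4004 CPM against at most 1035 CPM in the other CDDP libraries (log2 fold change -2.17 ± 0.59, edgeR adjusted p = 0.0296). It too did not pass without that CDDP+ACBP library (edgeR adjusted p = 0.0834), and it had -1.27 without CDDP replicate 5 (edgeR adjusted p = 0.0442).

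Among myeloid genes Chil3 changed most. Chil3, a chitinase-like protein of myeloid cells, had the largest fall of all named genes, from 5.51, 17.9, 16.5, 48.5 and 19.1 CPM in CDDP to 0.178, 0.212, 0.163, 0 and 0 CPM in CDDP+ACBP (log2 fold change -7.44 ± 0.73, edgeR adjusted p = 0.000274). Its CDDP+ACBP values rested on 10 reads in all and lay in the PBS range of 0 to 0.369 CPM. S100a8, a calcium-binding protein of neutrophils, also fell (log2 fold change -2.22), as did Itgam, an integrin of myeloid cells (-2.17). Of 17 monocyte and neutrophil markers 7 passed the filter on low counts. Among these 3 fell (42.9%, against 8.41% of all genes) and 0 rose, and 1 fell without the library labelled CDDP+ACBP replicate 4. Markers near 0 in CDDP+ACBP could pass the filter only through CDDP, so this share leans toward falls. Marco, a scavenger receptor of macrophages, stood at 27, 51.3, 34.5, 74.9 and 116 CPM in CDDP and 21.4, 25.7, 19.3, 6.6 and 16.1 CPM in CDDP+ACBP (log2 fold change -1.73 ± 0.42, edgeR adjusted p = 0.0191). Clec4f, a lectin of Kupffer cells, went the other way, from 67.4, 31.6, 35, 22.4 and 20.6 CPM to 60.5, 63, 68.6, 111 and 79.8 CPM (log2 fold change 1.14 ± 0.32, edgeR adjusted p = 0.0309). Its groups overlapped through CDDP replicate 1, and it missed the threshold without the library labelled CDDP+ACBP replicate 4 (edgeR adjusted p = 0.0918). Over the Kupffer cell list 1 of 17 rose and 2 fell (17.6%, near the 15% of all genes), with a median of 0.06, near that of all genes.

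Interferon-stimulated genes, which encode antiviral effectors, were higher in 10 of 36 members and lower in 1, with a median of 0.88. The share called was 30.6%, against 15% of all genes. Ifit3 had 3.01, 4.84, 2.85, 3.02 and 1.05 CPM in CDDP and 10.8, 10.5, 4.51, 21.6 and 25.1 CPM in CDDP+ACBP (log2 fold change 2.32 ± 0.47, edgeR adjusted p = 0.00935). Replicates 4 and 5 of CDDP+ACBP were highest, and replicate 3 lay within the CDDP range. Oas2, which makes an activator of an RNA-degrading enzyme, had 3.47, 3.34, 3.84, 3.63 and 1.61 CPM in CDDP and 9.02, 6.15, 14.3, 17.4 and 9.59 CPM in CDDP+ACBP (log2 fold change 1.85 ± 0.32, edgeR adjusted p = 0.00629). Xaf1, a proapoptotic interferon target, had 5.51, 5.96, 4.0, 4.08 and 3.95 CPM in CDDP and 9.32, 12.7, 11.5, 12.1 and 10.7 CPM in CDDP+ACBP (log2 fold change 1.29 ± 0.22, edgeR adjusted p = 0.00578). For both genes all CDDP+ACBP libraries were above all CDDP libraries. The member that fell was Gbp2, a guanylate-binding protein (-1.48, edgeR adjusted p = 0.0466). The count of higher members was 5 without the library labelled CDDP+ACBP replicate 4 and 0 without replicates 4 and 5, with medians of 0.85 and 0.81.

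Major urinary proteins, lipocalins that the liver secretes to carry pheromones and that growth hormone controls, were higher in 8 of 9 tested members. This was 88.9%, against 6.59% of all genes. Only 9 of 21 measured members passed the filter on low counts. Members near 0 in CDDP could pass it only through CDDP+ACBP, so this share leans toward rises. Mup3 (ENSMUSG00000066154, chromosome 4, 62083476 to 62087342) stood at 30.2, 17.1, 38.9, 32.8 and 65.3 CPM in CDDP and 879.9, 1194, 326, 1619 and 1892 CPM in CDDP+ACBP (log2 fold change 5.03 ± 0.53, edgeR adjusted p = 0.000426). The groups were far apart, and CDDP+ACBP replicate 3 was the lowest of its group. Mup17 had 0.625, 0.223, 0.164, 0.0504 and 0.645 CPM in CDDP and 3.03, 6.58, 0.869, 3.93 and 18.4 CPM in CDDP+ACBP (log2 fold change 4.33 ± 0.82, edgeR adjusted p = 0.00796), below the PBS range of 21.6 to 142 CPM. Mup18 had 0.114, 0.334, 0.0548, 0.0504 and 0.0806 CPM in CDDP and 2.73, 4.83, 0.652, 2.79 and 8.94 CPM in CDDP+ACBP (log2 fold change 4.93 ± 0.75, edgeR adjusted p = 0.00387). Of these 3, Mup17 and Mup18 remained under the lowest PBS library in every CDDP+ACBP library. The list still had 8 higher members without the library labelled CDDP+ACBP replicate 4, and 3 without replicates 4 and 5. Mup genes are near-identical copies among which reads can be split, and the pseudogene Mup-ps16 (log2 fold change 5.09 ± 0.76, edgeR adjusted p = 0.00365) also overlaps another annotated gene, so single values are uncertain. In the growth hormone and STAT5 list 3 of 19 rose, among them Igfals (1.58), the acid-labile subunit of the circulating IGF complex. In the same list 2 fell, Socs2 (-2.48), a feedback inhibitor, and Serpina1e (-2.62), a protease inhibitor gene. The 5 of 19 (26.3%, against 15% of all genes) became 1 higher and 1 lower without the library labelled CDDP+ACBP replicate 4. Without replicates 4 and 5 this list had 0 higher and 0 lower.

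Among cytochromes P450 of families 1 to 3, which oxidize drugs and steroids, 9 of 40 rose and 2 fell (27.5%, against 15% of all genes). These numbers were 8 and 0 without the library labelled CDDP+ACBP replicate 4, and 3 and 0 without replicates 4 and 5. Cyp2c44, an epoxygenase of arachidonic acid, had 61.5, 13.6, 66.5, 43.8 and 13.1 CPM in CDDP and 244, 299, 250.3, 383 and 277 CPM in CDDP+ACBP (log2 fold change 2.9 ± 0.45, edgeR adjusted p = 0.00419). Cyp2a22 had 42.2, 117, 59.3, 45.4 and 103 CPM in CDDP and 314, 304, 376, 410.2 and 411 CPM in CDDP+ACBP (log2 fold change 2.34 ± 0.31, edgeR adjusted p = 0.00263). For both, the lowest CDDP+ACBP library was well above the highest CDDP library. The 2 that fell were Cyp2d9 (-2.54, edgeR adjusted p = 0.0191) and Cyp3a41a (-1.18, edgeR adjusted p = 0.032). Among sulfotransferases 2 of 15 rose and 1 fell, 20% against 15% of all genes. Sult1e1, which inactivates estrogens (ENSMUSG00000029272, chromosome 5, 87575969 to 87591594), went from 169, 67.9, 85, 77.3 and 285 CPM in CDDP to 0.831, 0, 0.38, 0.228 and 3.69 CPM in CDDP+ACBP (log2 fold change -7.07 ± 0.93, edgeR adjusted p = 0.00245). Sult2a8, a bile acid sulfotransferase, went from 16, 25.8, 24.7, 19.6 and 9.19 CPM to 135, 215, 101, 329 and 393 CPM (log2 fold change 3.66 ± 0.42, edgeR adjusted p = 0.000936). CDDP+ACBP replicate 5 had the highest value of its group for both. Members of the Cyp2 and Sult families resemble each other in sequence, so reads may be split among them.

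Among nuclear receptors of metabolism 6 of 26 rose (23.1%, against 6.59% of all genes) and 0 fell, although the list's median size of change was among the 4 smallest. Nr1i3, the xenobiotic receptor CAR, had 489, 543, 417, 194 and 563 CPM in CDDP and 666, 632, 1293, 1569 and 1460.3 CPM in CDDP+ACBP (log2 fold change 1.37 ± 0.36, edgeR adjusted p = 0.0252). Replicates 3, 4 and 5 of CDDP+ACBP stood well above replicates 1 and 2. Without the library labelled CDDP+ACBP replicate 4 Nr1i3 did not pass (edgeR adjusted p = 0.0736) and 3 members were higher, and 0 were without replicates 4 and 5. Rara, a retinoic acid receptor, had 20.1, 15.9, 17.8, 20.9 and 12.3 CPM in CDDP and 36.3, 33.6, 36.6, 37.6 and 26 CPM in CDDP+ACBP (log2 fold change 1.0 ± 0.19, edgeR adjusted p = 0.00812), and Nr2f2, an orphan receptor, was also higher (log2 fold change 1.11 ± 0.24, edgeR adjusted p = 0.0125). The groups of Rara and Nr2f2 did not overlap. In the list of pericentral, Wnt-dependent hepatocyte genes 6 of 21 rose. Among them were Axin2 (1.08) and Lgr5 (1.48), a feedback inhibitor and a receptor of the Wnt pathway. The count of higher members was 4 without the library labelled CDDP+ACBP replicate 4 and 0 without replicates 4 and 5. The tight junction gene Cldn2 of the same list fell (-1.14), and the share of the list called was 33.3%, against 15% of all genes.

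Acute phase proteins had the lowest median of the lists, with 17 of 29 members lower and 1 higher (62.1%, against 15% of all genes). Lcn2, which binds bacterial iron carriers (ENSMUSG00000026822, chromosome 2, 32384633 to 32388252), had 283, 446, 109, 214 and 1900.5 CPM in CDDP and 18.1, 30.5, 13.5, 10.4 and 25.3 CPM in CDDP+ACBP (log2 fold change -4.88 ± 0.75, edgeR adjusted p = 0.0040). Apcs, the serum amyloid P component, had 377, 285, 290.5, 358 and 418 CPM in CDDP and 105, 128, 73.6, 67 and 74.5 CPM in CDDP+ACBP (log2 fold change -1.91 ± 0.25, edgeR adjusted p = 0.00263). Neither gene overlapped between groups, and Apcs varied little within them. Fga, whose promoter is printed above, had 3446, 1989, 2633, 4506 and 5278 CPM in CDDP and 1269, 1198, 453, 635 and 774 CPM in CDDP+ACBP (log2 fold change -2.01 ± 0.38, edgeR adjusted p = 0.00812). Saa1, a serum amyloid A gene, had 262, 18.4, 117, 157 and 3730.0 CPM in CDDP and 16.3, 48.8, 8.04, 21.9 and 44.4 CPM in CDDP+ACBP (log2 fold change -4.92 ± 1.23, edgeR adjusted p = 0.0209). Its groups overlapped, since CDDP replicate 2 lay under 3 CDDP+ACBP libraries while CDDP replicate 5 was far above the rest. Saa1 had -2.27 without CDDP replicate 5 (edgeR adjusted p = 0.0317) and lost its call without the library labelled CDDP+ACBP replicate 4 (edgeR adjusted p = 0.0655) or without CDDP+ACBP replicate 3. Haptoglobin, Hp, which binds free hemoglobin, had 8855, 5365, 6096, 6063 and 37864 CPM in CDDP and 3315, 3735, 3026, 2472 and 4046 CPM in CDDP+ACBP (log2 fold change -1.93 ± 0.56, edgeR adjusted p = 0.0367). The fold change of Hp was -0.96 without CDDP replicate 5 (edgeR adjusted p = 0.0396), and Hp missed the threshold without the library labelled CDDP+ACBP replicate 4 (edgeR adjusted p = 0.0988). The single member that rose was Hamp2, a hepcidin-like gene (3.35, edgeR adjusted p = 0.0373), while Hamp, the iron hormone hepcidin, fell (-1.71, edgeR adjusted p = 0.0421). The list's median was -0.96 without CDDP replicate 5, and then no longer the lowest of the lists. Its members lower numbered 8 without the library labelled CDDP+ACBP replicate 4 and 1 without replicates 4 and 5, with medians of -1.55 and -1.71.

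Targets of the glucocorticoid receptor, the hormone receptor that drives fasting and stress programmes, fell in 11 of 26 members and rose in 0. The share lower was 42.3%, against 8.41% of all genes. Zbtb16, a transcription factor induced by glucocorticoids, had 66, 56.6, 52.8, 38.4 and 101 CPM in CDDP and 12.3, 10.2, 5.86, 6.71 and 10.1 CPM in CDDP+ACBP (log2 fold change -2.77 ± 0.31, edgeR adjusted p = 0.000662). Lpin1, a phosphatidate phosphatase and coactivator, had 337, 444, 688, 598 and 879 CPM in CDDP and 59.9, 72, 75.7, 127 and 111 CPM in CDDP+ACBP (log2 fold change -2.7 ± 0.33, edgeR adjusted p = 0.00141). Fkbp5, a chaperone that restrains the receptor, had 205, 231, 226, 218 and 347 CPM in CDDP and 59.9, 37.8, 50.8, 92.5 and 104 CPM in CDDP+ACBP (log2 fold change -1.8 ± 0.30, edgeR adjusted p = 0.00536). For all 3 the groups did not overlap, and the call held in each fit that left out 1 library. Serpina6, which is not a member of this list, encodes the plasma carrier of glucocorticoids. It rose from 43.1, 0.779, 62.2, 26.8 and 2.34 CPM to 304, 339.6, 188, 409 and 596 CPM (log2 fold change 3.79 ± 0.89, edgeR adjusted p = 0.0165). Of the list, 6 members were lower without the library labelled CDDP+ACBP replicate 4 and 4 without replicates 4 and 5, and its median was -0.82 without CDDP replicate 5.

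In the list for gluconeogenesis, the synthesis of glucose in fasting, 4 of 19 members fell (21.1%, against 8.41% of all genes) and 0 rose. The number lower was 2 without the library labelled CDDP+ACBP replicate 4 and 0 without replicates 4 and 5. This list is not limited to enzymes of the pathway, since it holds Igfbp1. Igfbp1, which binds insulin-like growth factors and is repressed by insulin, went from 248, 2374, 539.9, 1287 and 13235 CPM in CDDP to 157, 107, 127, 13.7 and 58.7 CPM in CDDP+ACBP (log2 fold change -5.24 ± 1.08, edgeR adjusted p = 0.0103). Tat, which breaks down tyrosine, had 1162, 2032, 2907, 3401 and 13809.9 CPM in CDDP and 806, 1272, 1438, 416 and 1131 CPM in CDDP+ACBP (log2 fold change -2.18 ± 0.62, edgeR adjusted p = 0.0347). Both peaked in CDDP replicate 5, and without it the edgeR adjusted p of Tat was 0.0559, and it was 0.092 without the library labelled CDDP+ACBP replicate 4. Pck1, the rate-controlling enzyme of the pathway, stood at 811, 2497, 2747, 2639.7 and 7921 CPM in CDDP and 2061, 3177, 2923, 1944 and 3147 CPM in CDDP+ACBP. Its groups overlapped and it did not pass (log2 fold change -0.30 ± 0.48, edgeR adjusted p = 0.691), with a fold change of 0.32 without CDDP replicate 5. The median of the list was -0.87 with it and -0.25 without it.

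Immediate early genes, the AP-1 group that responds first to stress signals, fell in 8 of 21 members and rose in 1. The share called was 42.9%, against 15% of all genes. Myc, a growth-promoting transcription factor, had 8.47, 20.4, 55.9, 32.1 and 95 CPM in CDDP and 6.17, 1.49, 7.76, 5.75 and 3.56 CPM in CDDP+ACBP (log2 fold change -3.09 ± 0.59, edgeR adjusted p = 0.00819). Klf6 had 19.9, 40.4, 14.9, 44.5 and 56.8 CPM in CDDP and 11.3, 9.66, 9.28, 9.44 and 12.2 CPM in CDDP+ACBP (log2 fold change -1.73 ± 0.33, edgeR adjusted p = 0.00773). Both were higher in every CDDP library than in any CDDP+ACBP library. Jund, an AP-1 subunit, had 1003 CPM in CDDP replicate 5 and overlapped between the groups (log2 fold change -1.39 ± 0.53, edgeR adjusted p = 0.0882). The list's median was -0.56 without CDDP replicate 5. Members lower numbered 3 without the library labelled CDDP+ACBP replicate 4 and 0 without replicates 4 and 5. Genes of amino acid stress under the factor ATF4 fell in 8 of 24 members and rose in 1 (37.5%, against 15% of all genes). Psat1, an enzyme of serine synthesis, had 1.08, 16.6, 2.36, 18.5 and 2.1 CPM in CDDP and 0.297, 0.637, 0.217, 0.398 and 0.324 CPM in CDDP+ACBP (log2 fold change -4.36 ± 0.81, edgeR adjusted p = 0.0073). Asns had 0.852, 4.12, 1.81, 7.66 and 7.1 CPM in CDDP and 0.237, 0.637, 0.109, 0.0569 and 0.777 CPM in CDDP+ACBP (log2 fold change -3.5 ± 0.74, edgeR adjusted p = 0.0109). For both, CDDP replicate 1 was the CDDP library nearest to the other group. Members lower numbered 2 without the library labelled CDDP+ACBP replicate 4, with a median of -0.99 against -1.04. Without replicates 4 and 5 they numbered 0, with a median of -0.93.

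Of the p53 targets 4 of 31 fell (12.9%, against 8.41% of all genes) and 0 rose. Those that fell were Cdkn1a, given above, Btg2, Sesn2 (-2.38) and Trp53inp1 (-2.17). The list's median was -0.53, against -0.02 over all genes, with 25 fold changes negative and 6 positive. Btg2, an antiproliferative gene that is also an immediate early gene, had 43.8, 154, 45.8, 74.4 and 1129 CPM in CDDP and 28.7, 21.1, 14, 5.69 and 23.2 CPM in CDDP+ACBP (log2 fold change -3.94 ± 0.92, edgeR adjusted p = 0.0161). Aen, a p53-induced nuclease, had 61.2, 80.0, 47.7, 53.9 and 78.9 CPM in CDDP and 35.1, 28, 64.7, 16 and 15.9 CPM in CDDP+ACBP (log2 fold change -0.98 ± 0.35, edgeR adjusted p = 0.0726). Eda2r, a death receptor under p53, had 3.58, 7.9, 6.85, 5.99 and 3.55 CPM in CDDP and 2.37, 3.5, 3.91, 2.45 and 1.75 CPM in CDDP+ACBP (log2 fold change -0.96 ± 0.33, edgeR adjusted p = 0.0624). Aen and Eda2r did not pass, and for both every CDDP+ACBP library, the one labelled replicate 4 included, stood above the PBS ranges of 9.14 to 13.9 and 0.123 to 0.814 CPM. Only Cdkn1a of the list was called without the library labelled CDDP+ACBP replicate 4 (-2.84, edgeR adjusted p = 0.0123) and without replicates 4 and 5 (-2.57, edgeR adjusted p = 0.0261). DNA repair genes rose in 3 and fell in 3 of 29 (20.7%, against 15% of all genes), and none of the 29 was called without the library labelled CDDP+ACBP replicate 4, where Brca1 had an edgeR adjusted p of 0.0549 and Ddb1 of 0.0586. Brca1, which acts in recombinational repair, had 5.46, 3.51, 4.71, 4.53 and 3.95 CPM in CDDP and 1.31, 0.478, 0.706, 1.19 and 2.72 CPM in CDDP+ACBP (log2 fold change -1.77 ± 0.42, edgeR adjusted p = 0.0178). Ddb1, part of a damage-recognition ligase, fell as well (log2 fold change -1.31 ± 0.32, edgeR adjusted p = 0.0183), while Chek2 (1.64), Brca2 (1.21) and Fanca (1.13) rose.

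Cytosolic ribosomal protein genes fell in 36 of 53 members (67.9%, against 8.41% of all genes) and rose in 0, with a median of -1.09. The groups did not overlap for 43 of 53, against 15% of all genes. Rpl3, of the large subunit, had 509, 874, 435, 453 and 924 CPM in CDDP and 233, 161, 125, 98.7 and 187 CPM in CDDP+ACBP (log2 fold change -1.95 ± 0.32, edgeR adjusted p = 0.00547). Rps4x, of the small subunit, had 401, 629.7, 335, 364 and 531 CPM in CDDP and 163, 142, 71.8, 84.5 and 149 CPM in CDDP+ACBP (log2 fold change -1.85 ± 0.30, edgeR adjusted p = 0.00513). For both genes each CDDP library stood above each CDDP+ACBP library. Ribosomal protein genes have many processed pseudogenes that can take reads. Ribosome biogenesis genes fell in 12 of 30, proteasome subunits in 8 of 32 and aminoacyl-tRNA synthetases in 5 of 20. The shares were 40%, 25% and 25%, against 8.41% of all genes, and none of these 3 lists had a member that rose. These counts were 5, 2 and 3 without the library labelled CDDP+ACBP replicate 4 and 0 in each list without replicates 4 and 5. Psmd8, a subunit of the proteasome lid, had 98.6, 381, 128, 167 and 259 CPM in CDDP and 75.8, 60.8, 52.3, 48.1 and 70.7 CPM in CDDP+ACBP (log2 fold change -1.71 ± 0.34, edgeR adjusted p = 0.00918). The ribosomal protein count was 22 without the library labelled CDDP+ACBP replicate 4 and 0 without replicates 4 and 5, with medians of -1.03 and -1.05.

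Mitochondria hold a genome of their own, whose mRNAs encode core subunits of the respiratory chain. Of 12 mitochondrial mRNAs 8 rose (66.7%, against 6.59% of all genes) and 0 fell, with a median of 1.25. The count was 5 without the library labelled CDDP+ACBP replicate 4 and 0 without replicates 4 and 5, with medians of 1.13 and 1.01. mt-Co1, a core subunit of cytochrome c oxidase, had 9942, 5870.0, 9682, 7974 and 8591 CPM in CDDP and 16057, 22563, 37524, 37856 and 27192 CPM in CDDP+ACBP (log2 fold change 1.77 ± 0.36, edgeR adjusted p = 0.0095). The groups did not overlap, and CDDP+ACBP replicates 3 and 4 were highest. Mitochondrial RNA made up 3.44% ± 0.42 of gene reads in CDDP against 9.19% ± 3.02 in CDDP+ACBP (SD, n = 5; 2-sided exact permutation p = 0.00794, the lowest that this design can give). The share was 11.5% ± 1.85 in PBS and 9.77% ± 1.47 in ACBP. The share of reads counted on genes moved with the groups as well, 41.0% ± 1.31 in CDDP and 37.6% ± 0.90 in CDDP+ACBP, as did reads aligned to more than 1 place, 6.72% ± 0.46 and 10.4% ± 1.55 (2-sided exact permutation p = 0.00794 for each). The part of these library measures in the gene results was not tested.

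Nuclear-encoded respiratory chain genes fell in 2 of 46 (4.35%, against 8.41% of all genes) and rose in 0. Uqcrq, a subunit of complex III, had 986, 840.0, 1074, 610.0 and 944 CPM in CDDP and 1029, 878, 813, 851 and 1169 CPM in CDDP+ACBP (log2 fold change 0.12 ± 0.24, edgeR adjusted p = 0.764). The 2 that fell were Atp5b, the catalytic subunit of ATP synthase (log2 fold change -1.03 ± 0.31, edgeR adjusted p = 0.0429), and Sdhd, which anchors succinate dehydrogenase (log2 fold change -0.96 ± 0.28, edgeR adjusted p = 0.0356). Neither passed without the library labelled CDDP+ACBP replicate 4 (edgeR adjusted p = 0.114 and 0.098). Among mitochondrial ribosomal proteins 4 of 40 fell (10%, near the 8.41% of all genes) and 0 rose. Mrps23 had 20.3, 37.4, 22.6, 30.3 and 45.9 CPM in CDDP and 14.5, 16.3, 16.8, 11.6 and 17.6 CPM in CDDP+ACBP (log2 fold change -0.99 ± 0.24, edgeR adjusted p = 0.0187), Mrpl32 also fell (log2 fold change -0.78 ± 0.20, edgeR adjusted p = 0.0227), and Mrpl12 did not pass (log2 fold change -0.40 ± 0.25, edgeR adjusted p = 0.286). None of the 40 was called without the library labelled CDDP+ACBP replicate 4. Heat shock chaperones had 0 of 22 members called by edgeR and 3 with an unadjusted p under 0.05 (1 called by DESeq2 and 5 by limma voom). Their median was -0.32, and Hspa1a, an inducible member, had -1.25 (edgeR adjusted p = 0.228).

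In lipid and acyl-CoA metabolism, the setting of the pumped protein, the share called differed between lists. Against 15% of all genes it was 5.56% for fatty acid oxidation, 11.5% for fatty acid synthesis, 20% for cholesterol synthesis, 23.1% for apolipoproteins, 27.3% for acyl-CoA handling and 27.8% for lipid droplets. Fatty acid oxidation and ketogenesis genes rose in 2 of 36 and fell in 0, with a median of 0.05. Fabp1, the fatty acid-binding protein of liver, had 660.2, 1212, 589, 298 and 117 CPM in CDDP and 3238, 3509, 2168, 3267 and 3368 CPM in CDDP+ACBP (log2 fold change 2.48 ± 0.50, edgeR adjusted p = 0.0095). Acaa1b, a peroxisomal thiolase, had 354, 303, 387, 207 and 133 CPM in CDDP and 1608, 1210.0, 2616, 1955 and 1873 CPM in CDDP+ACBP (log2 fold change 2.77 ± 0.34, edgeR adjusted p = 0.00155). Both were separated between the groups, and 4 of the 5 CDDP+ACBP libraries lay within the PBS range of 3012 to 4993 CPM for Fabp1. Dbi itself, the gene of the pumped protein (ENSMUSG00000026385, chromosome 1, 120113280 to 120121078), stood at 1167, 843, 912, 775 and 324 CPM in CDDP and 1127, 902, 477, 475 and 787 CPM in CDDP+ACBP. The groups overlapped and it did not pass (log2 fold change -0.05 ± 0.36, edgeR adjusted p = 0.934), and mRNA does not measure the pumped protein. Among acyl-CoA-binding and acyl-CoA handling genes 3 of 22 rose and 3 fell, including Acbd3 (-1.1), a Golgi protein with an acyl-CoA-binding domain, and Tspo (-1.01), a mitochondrial membrane protein that binds the pumped protein. Of 16 GABA-A receptor subunit genes 2 passed the filter on low counts. Among these edgeR called 0, 0 had an unadjusted p under 0.05, and DESeq2 and limma voom called 0 and 0. Cholesterol synthesis and uptake genes fell in 5 of 25 and rose in 0. Lipid droplet genes fell in 5 of 18, among them Cidec (-3.71), which enlarges droplets, and none of the 18 was called without the library labelled CDDP+ACBP replicate 4. Without it 4 cholesterol genes were lower, and 0 without replicates 4 and 5. Apoa4, an apolipoprotein raised by fasting, fell from 443, 37953, 2817, 7801 and 10303 CPM to 352, 290.4, 145, 187 and 417 CPM (log2 fold change -5.36 ± 0.95, edgeR adjusted p = 0.0065), with CDDP replicate 2 far above the rest.

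Hectd2, Aldh3b3 and Car3 were among the largest rises. Hectd2, a ubiquitin ligase gene (ENSMUSG00000041180, chromosome 19, 36554639 to 36621135), had 4.94, 3.28, 5.26, 6.35 and 1.85 CPM in CDDP and 91.5, 57.2, 68.8, 75 and 65.8 CPM in CDDP+ACBP (log2 fold change 4.07 ± 0.31, edgeR adjusted p = 3.69e-05). An annotated gene lies over it on the opposite strand, and the strand setting of the counting is not stated, so its reads may be shared. Aldh3b3, an aldehyde dehydrogenase, had 0.114, 0, 0.329, 0.101 and 0.403 CPM in CDDP and 8.37, 6.31, 14.7, 28 and 10.4 CPM in CDDP+ACBP (log2 fold change 6.21 ± 0.64, edgeR adjusted p = 0.000401). Car3, a carbonic anhydrase, had 46.8, 3.06, 43.7, 26.6 and 1.61 CPM in CDDP and 874, 886, 409, 715 and 997 CPM in CDDP+ACBP (log2 fold change 5.02 ± 0.82, edgeR adjusted p = 0.00534). For each of these 3 genes all CDDP+ACBP libraries were above all CDDP libraries, and PBS libraries ranged from 8.13 to 27.8 CPM for Aldh3b3 and from 609 to 940.3 CPM for Car3. Derl3, of the unfolded protein response list and the degradation of misfolded secretory proteins, had 1.76, 0.167, 1.64, 1.86 and 0 CPM in CDDP and 7.6, 24.9, 29.4, 7.68 and 5.31 CPM in CDDP+ACBP, above the PBS range of 1.5 to 2.09 CPM (log2 fold change 3.78 ± 0.77, edgeR adjusted p = 0.0102). Treh, which splits trehalose, fell from 9.89, 23.9, 7.62, 15.7 and 57.7 CPM to 0.415, 0.212, 0, 0 and 0.972 CPM (log2 fold change -6.16 ± 0.87, edgeR adjusted p = 0.00302). Lepr, the leptin receptor, fell from 14.5, 124, 7.18, 31.5 and 331 CPM to 3.38, 7.27, 4.51, 8.14 and 2.46 CPM (log2 fold change -4.27 ± 0.92, edgeR adjusted p = 0.012). CDDP replicate 3 was the CDDP library that overlapped CDDP+ACBP for Lepr. Falls of Cd14 (-5.43), a lipopolysaccharide coreceptor, Bmper (-5.18), Adcy1 (-4.99) and Dusp8 (-4.3) all had their highest level in CDDP replicate 5. Without the library labelled CDDP+ACBP replicate 4, Bmper and Dusp8 missed the threshold (edgeR adjusted p = 0.0503 and 0.0653). Among clock genes 4 of 19 rose and 2 fell (31.6%, against 15% of all genes), with 1 higher and 0 lower without the library labelled CDDP+ACBP replicate 4. Dbp, an output transcription factor of the clock, had 71.2, 24.8, 25.8, 9.07 and 17 CPM in CDDP and 208, 180.1, 256, 492 and 571 CPM in CDDP+ACBP (log2 fold change 3.56 ± 0.54, edgeR adjusted p = 0.0040). Cps1, the first enzyme of the urea cycle, fell from 2386, 3028, 2868, 2970.5 and 3280.4 CPM to 1271, 861, 396, 853 and 1044 CPM (log2 fold change -1.68 ± 0.32, edgeR adjusted p = 0.00773).

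**Figure D3:**
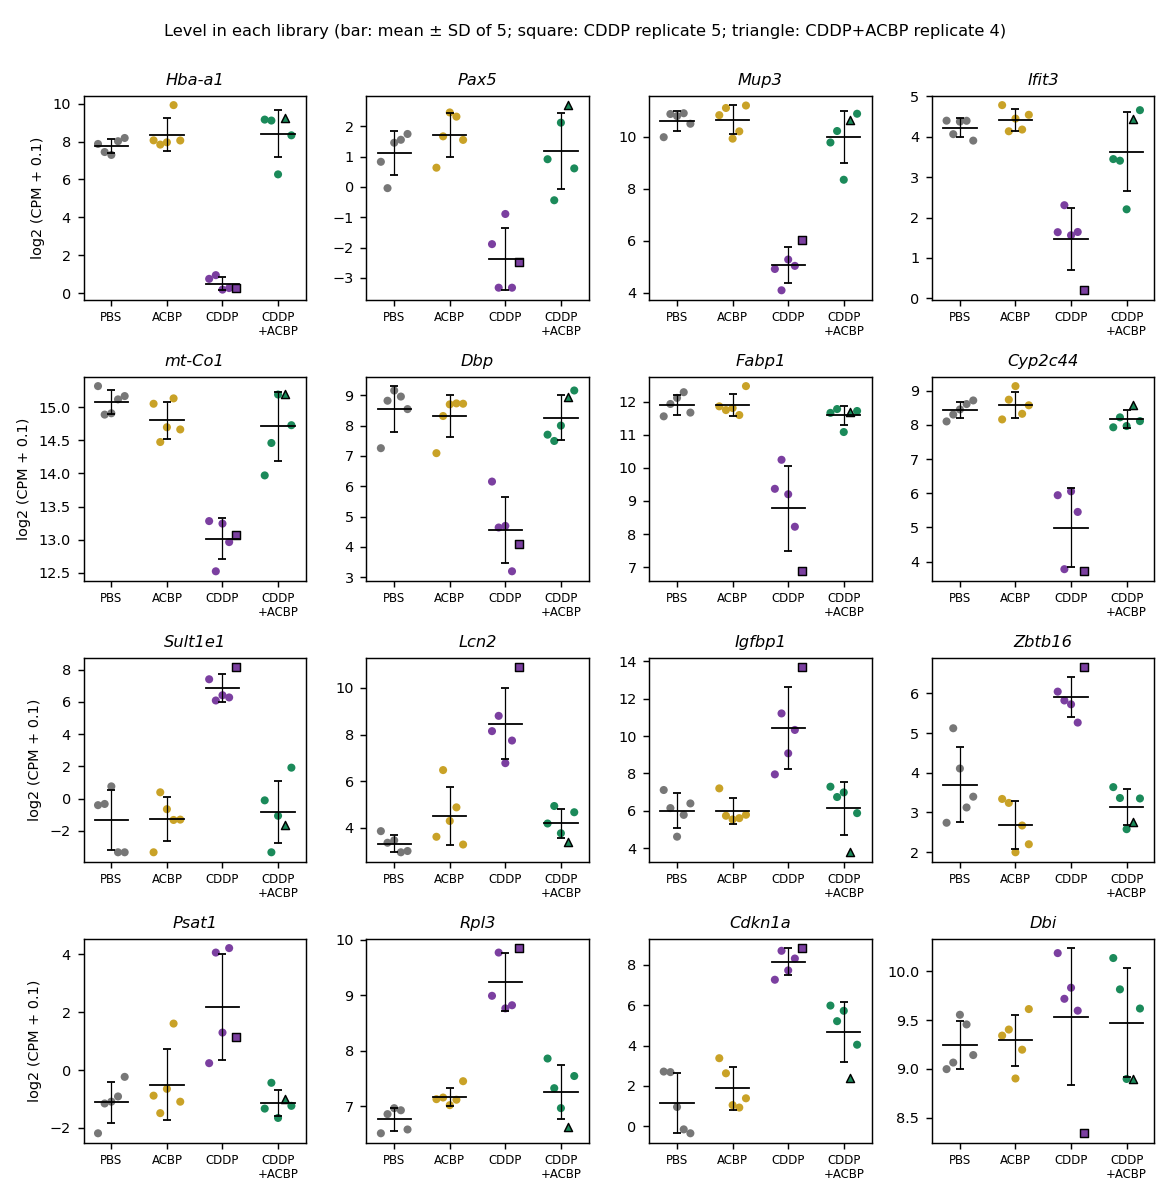
Level of 16 genes in each library of 4 groups (y axis, log2 of CPM + 0.1; bars are mean ± SD of the 5 libraries). For Hba-a1, Mup3, Sult1e1 and Rpl3 each CDDP library lies on one side of each CDDP+ACBP library, the groups of Dbi overlap, and for Cdkn1a CDDP+ACBP lies between PBS and CDDP except for the library labelled replicate 4 (triangle).

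The muscle list rested on a single library. Skeletal muscle genes had a median of 1.6 with 0 of 7 called by edgeR, 0 with an unadjusted p under 0.05, 0 called by DESeq2 and 0 by limma voom. Ttn, a giant protein of the sarcomere, had 22.4, 0.39, 0.0548, 0.201 and 21.5 CPM in CDDP and 0.0594, 195, 14.4, 0.114 and 1.17 CPM in CDDP+ACBP (log2 fold change 2.31 ± 1.72, edgeR adjusted p = 0.367). CDDP+ACBP replicate 2 held most muscle transcripts, and without it the fold changes were -1.18 for Ttn, -0.58 for Mylpf and -1.06 for Acta1. The summed level of the 17 muscle genes was 18.1 to 1038 CPM in CDDP and 25.5 to 3890.1 CPM in CDDP+ACBP. Collagens and matrix had the highest share called of 5 further cell type lists, 23.8% against 15% of all genes. Collagens and matrix had 3 higher and 2 lower of 21, and hepatocytes 2 lower of 10 (20%), with a hepatocyte median of -0.69. Sinusoidal endothelium had 2 higher and 1 lower of 19 (15.8%) and stellate cells 3 higher of 18 (16.7%), both near the share of all genes. Cholangiocytes had 0 of 7 called (1 with an unadjusted p under 0.05, 0 by DESeq2 and 0 by limma voom).

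**Figure D4:**
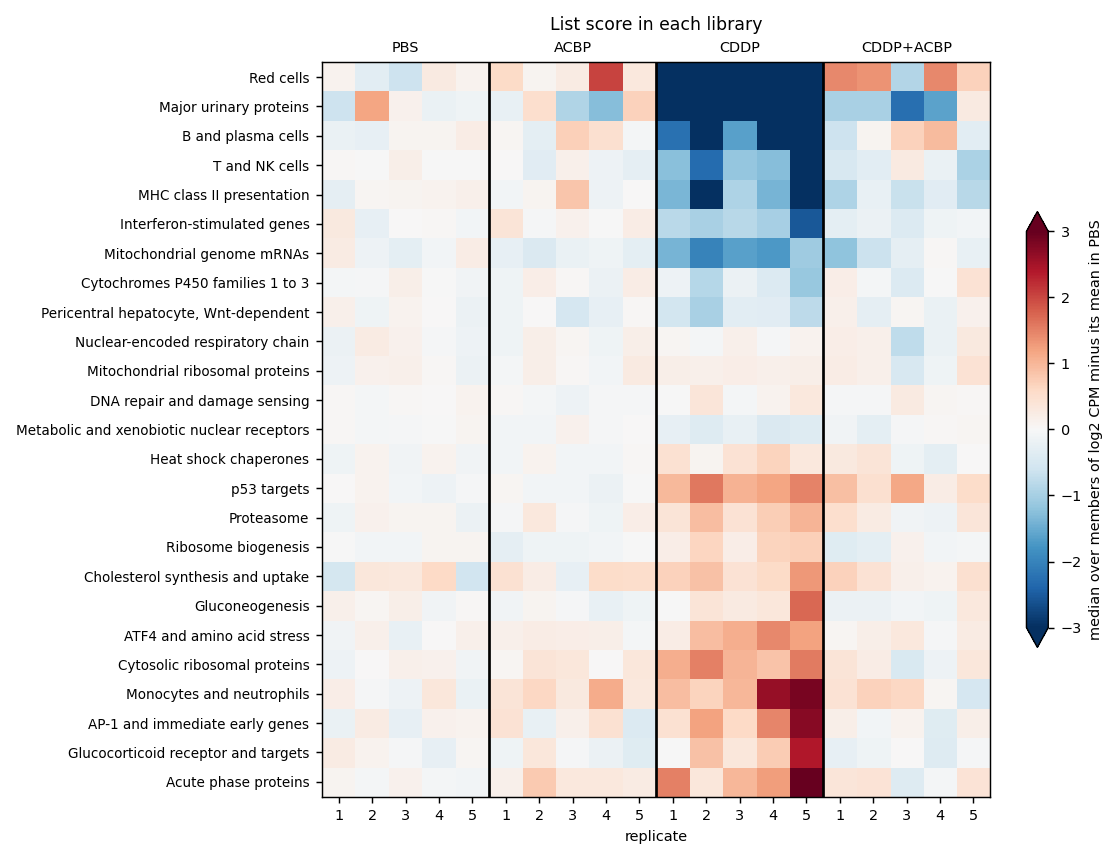
Score of 25 gene lists (rows) in 20 libraries of 4 groups (columns), as the median over tested members of log2 CPM minus the PBS mean, with colours cut at -3 and 3. Acute phase scores in CDDP run from 0.33 in replicate 2 to 3.15 in replicate 5, and p53 scores in CDDP+ACBP run from 0.23 in the library labelled replicate 4 to 1.16 in replicate 3.

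Whether the ACBP pump changed genes differently with cisplatin than without it was tested as an interaction in a fit of all 30 libraries, with the ACBP and PBS groups as the pair without cisplatin. This edgeR test called 3216 of 16304 genes (19.7%). CDDP libraries differed more among themselves than those of any other group, so a spread shared by all 30 libraries may be too small for them. A fit of the 4 groups alone called 2425 genes for the interaction. Hba-a1 had an interaction of 7.46 on the log2 scale (edgeR adjusted p = 3.77e-07) and a change of 0.829 between ACBP and PBS (edgeR adjusted p = 0.999). Mup3 had 4.92 (edgeR adjusted p = 6.84e-07) and Sult1e1 -6.77 (edgeR adjusted p = 0.000587). Dbi had -0.145 and did not pass (edgeR adjusted p = 0.824). Of the 26 genes that had the largest changes or were Dbi and Cdkn1a, 24 passed the interaction test. Most of the 26 were picked by their large change of CDDP+ACBP over CDDP. The interaction contains that same change, so this count is no separate support.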

How the data were processed

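A single table held reads per gene for liver mRNA from 30 libraries, 5 in each of 6 groups. Per the labels, column-purified RNA (1.5 µg) was made into strand-specific mRNA libraries. Per the submitters' processing notes, HISAT2 2.2.1 and HTSeq 2.0.3 were used on build mm10, and the deposited values are raw counts, not normalized by the authors. The annotation release is not given in the sources used, nor is the strand setting. Of 48440 genes, 99.2% matched GENCODE vM21 by identifier without version, the source of coordinates. The 5 summary rows (reads on no gene or not placed) entered neither library sizes nor tests, so 36.3% to 42.6% of the reads in the table entered them in the 10 libraries. Promoters came from RefSeq (GRCm38.p6).

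Groups came from the treatment label. Replicates were numbered in order of deposit and pair nothing. No 2 libraries of the CDDP or CDDP+ACBP group agreed within sampling noise (chi-square per degree of freedom at least 31.9). The test on counts of the 2 groups was the quasi-likelihood F test of edgeR 4.0.16 (R 4.3.3), 2-sided, with TMM factors and filterByExpr, and p-values were adjusted by Benjamini-Hochberg over all genes tested. CPM levels use TMM factors of all 30 libraries. The SE was taken from the log2 fold change and F. List scores use log2 CPM with a prior count of 2. In counts simulated for this comparison over 14508 genes, 200 were changed. Of 102 calls 5 were false, and the share found was 10% at a fold of 1.5, 14% at 2, 78% at 4 and 92% at 8.

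Members, gene lists and the choice to fit only these 2 groups were made with earlier results of these data known. Named genes were Dbi and Cdkn1a, then the 12 largest rises and 12 largest falls with a call, a settled symbol, 5 CPM or more on average in 1 group and no library across the mean of the other group. Further genes were the 2 members of smallest p, and 1 of highest level, of the 8 lists with the largest medians in size and the 4 pathway lists with the smallest median size of change. A further 31 genes, and members given by their fold change alone, were chosen after their values were seen: Aen, Eda2r, Saa1, Serpina3n, Fga, Fkbp5, Tat, Btg2, Atf3, Asns, Rpl3, Rps4x, Psmd8, mt-Co1, mt-Co3, Ifit3, Oas2, Xaf1, H2-Ab1, Cd74, Clec4f, Marco, Dbp, Cyp2a22, Cyp2c44, Fabp1, Acaa1b, Sult2a8, Alb, Cps1 and Pax5. So were the promoters and motifs. Alternatives were RLE factors, other filters, DESeq2 1.42.0, limma 3.58.1 voom with quality weights, a fold of at least 1.5 (glmTreat), a fit of 30 libraries, and leaving out each library. Added after seeing the data were fits without CDDP+ACBP replicates 4 and 5, fits without CDDP replicate 5 and CDDP+ACBP replicate 4, and scaling by library size alone. Summaries were made with pandas 2.3.3, scipy 1.17.1 and numpy 2.4.6 in Python 3.11.15, and plots with matplotlib 3.10.9.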

Additional observations from a re-analysis of the deposited data

Results flagged for a closer look

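In groups of 5 libraries, the gap between the outermost value and its neighbour, as a share of the whole range, was set against Dixon's limit of 0.71. Chance puts about 1 in 20 groups past it. Of 176 values by group, 26 were past it, 17 of them in CDDP replicate 5. There the levels in CPM were Cd14 363, Igfbp1 13235, Bmper 95.3, Adcy1 58.5, Lcn2 1900.5, Dusp8 60.8, Hp 37864, Pck1 7921, Ctsl 4004, Jund 1003, Saa1 3730.0, Serpina3n 4670.5, Fkbp5 347, Tat 13810.0, Btg2 1129, Atf3 158 and Oas2 1.61. The Oas2 value was the lowest of its group and the others were the highest. In CDDP+ACBP replicate 5 this was Sult1e1 3.69 CPM. In CDDP replicate 2 these were Apoa4 37953 and Mup18 0.334 CPM. In CDDP+ACBP replicate 2 these were Mylpf 123, Ttn 195 and Acta1 687 CPM. In CDDP replicate 3 this was Cd3d 0.767 CPM. In CDDP replicate 1 this was Dbp 71.2 CPM. In CDDP+ACBP replicate 3 this was Fabp1 2168 CPM.

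The change with the ACBP pump differed between cisplatin and no cisplatin for 3216 genes by edgeR's interaction test in the fit of all 30 libraries. Of the 26 genes that were Dbi, Cdkn1a or among the largest rises and falls, 24 passed. The largest rises and falls were picked by a change that the interaction contains, so this count is no separate support. The interaction is the log2 change with ACBP under cisplatin minus that without it. It was Hbb-bs 8.21, Hba-a2 8.20, Hba-a1 7.46, Hbb-bt 6.51, Aldh3b3 6.26, Mup-ps16 5.98, Mup3 4.92, Car3 4.84, Mup17 5.13, Hectd2 3.81 and Serpina6 3.95 for genes that rose under cisplatin. For genes that fell it was Chil3 -8.03, Sult1e1 -6.77, Treh -6.16, Cd14 -5.33, Apoa4 -5.71, Igfbp1 -5.17, Bmper -5.96, Adcy1 -10.41, Lcn2 -6.56, Psat1 -5.58, Dusp8 -5.22, Lepr -3.77 and Cdkn1a -3.64. Dbi and Derl3 did not pass. The value of Adcy1 holds an ACBP over PBS change of 5.41 that rests on ACBP replicate 4, at 56.6 CPM against 0.123 to 0.448 CPM in the other 4 ACBP libraries.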

How the results depend on the processing

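Leaving out each of the 10 libraries in turn gave 879 to 2721 changed genes, 418 to 1168 higher and 461 to 1553 lower. DESeq2 called 3392 genes, 1617 of them higher. The fit of all 30 libraries called 5503 (2432 higher, 3071 lower), and the test against a fold of at least 1.5 called 408 (199 higher, 209 lower). Without CDDP+ACBP replicates 4 and 5, 138 were called (94 higher, 44 lower), and without CDDP replicate 5 and CDDP+ACBP replicate 4, 1145 (566 higher, 579 lower). The cause was not tested, but both fits hold fewer libraries. The interaction count was 2422 to 3855 over its alternatives, and leaving out a library moved the difference in mitochondrial share to between 4.88 and 6.68 percentage points.

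Of 87 named genes, 28 kept their direction and their side of the threshold in every alternative. Of 1818 gene and alternative pairs, 167 lost the call, 18 gained it and 12 turned in direction. Those that turned had not passed. Leaving out 1 library gave Pck1 -0.56 to 0.32, Dbi -0.26 to 0.10, and, with their lowest values without CDDP+ACBP replicate 2, Mylpf -0.58 to 2.49, Ttn -1.18 to 3.01 and Acta1 -1.06 to 3.42. Pck1 was also at 0.31 with voom, 0.25 without CDDP replicate 5 and the muscle-rich CDDP+ACBP replicate 2, and 0.43 without CDDP replicate 5 and CDDP+ACBP replicate 4. Alb was at 0.00042 with voom, and Dbi at 0.10 without CDDP+ACBP replicates 4 and 5. Of 1302 list medians under alternatives, 48 moved by more than 1 SD between libraries. No paired analysis was possible because the labels number the libraries from 1 to 30 and give the groups no shared numbers. Depth limits genes of few reads, such as Pax5, Cd3d and Mup18.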
